A study of Sus scrofa with 6 samples.

Results

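The DnaJ, or HSP40, co-chaperone genes were described in pig embryos at the 4-cell stage. Members were the protein-coding genes of the expression table whose symbol starts with DNAJA, DNAJB or DNAJC and a number, without DNAJB9 and DNAJC3. This gave 42 of the 30376 annotated genes: 4 of class A, 12 of class B and 26 of class C. Poly(A) RNA was sequenced in 3 libraries of embryos cultured at 41.5 °C (HT) and 3 libraries of embryos cultured at 38.5 °C (Control). The series asks how heat affects the activation of the embryonic genome. All embryos came from oocytes activated by 2 direct-current pulses of 120 V, with no sperm described, and were kept for 4 days in PZM-5 medium under 5% CO2. The labels list the genotype of the Control embryos as WT and that of the heated embryos as HT, the name of their treatment. They mention about 300 samples in lysis buffer, without saying how these were divided, so each library is taken as a pool of embryos. The labels give no age or strain of the oocyte donors, and nothing says that replicates were separate cultures. Each p-value thus covers the scatter among the 6 libraries alone, and that scatter may be technical.

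A DnaJ protein carries a J domain, with which it docks on an HSP70 chaperone and speeds up its ATP hydrolysis, so that HSP70 closes on a client protein. Class A proteins also have a glycine- and phenylalanine-rich stretch and a zinc-finger-like region, class B proteins have the stretch without the zinc-finger-like region, and class C proteins share little beyond the J domain. Nucleotide exchange factors then open HSP70 again and end the cycle. In somatic cells some members, DNAJB1 above all, are induced by the heat shock factor HSF1, while many others are constitutive. The early embryo draws on transcripts stored by the oocyte until its own genome is transcribed.

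Total counts lay between 28114005 and 30079385 reads per library, and 39 of the 42 members had enough reads to be tested. The 12 embryo and oocyte markers were all detected, summing to 9388, 12856 and 11427 CPM (counts relative to library size) in HT libraries and 10629, 13197 and 12745 CPM in Control libraries. Of 11 cumulus and granulosa markers 10 were in the table, and FSHR, AMH, FOXL2 and INHA had no reads in any library. Their sum was 16.2, 17 and 16.5 CPM in HT libraries and 14.1, 15 and 14.6 CPM in Control libraries, without overlap. The part of these cells in the results below was not tested. The 8 blood and stroma markers, of which LUM had no reads, summed to between 9.91 and 11.1 CPM in HT libraries and between 10.1 and 12.4 CPM in Control libraries.

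DnaJ transcripts covered a wide range of levels in the 4-cell embryo. On the TPM scale, which corrects for gene length and allows genes to be compared, 6 members averaged above 100 TPM over the 6 libraries, 20 above 10 TPM, 7 between 1 and 10 TPM and 15 below 1 TPM. DNAJA1, the main cytosolic partner of HSPA8 in class A, was the most abundant at 552 TPM. It was followed by DNAJC15, a protein of the mitochondrial inner membrane, at 386 TPM. DNAJB1, the heat-inducible co-chaperone, was at 174 TPM, beside DNAJC21, a factor of ribosome maturation, at 173 TPM and DNAJC7, which links HSP70 with HSP90, at 163 TPM. The levels of DNAJB1, DNAJC21 and DNAJC7 overlapped between libraries, so they do not differ beyond their spread. DNAJC8, a protein of the spliceosome, averaged 142 TPM, the histone co-chaperone DNAJC9 80.7 TPM and DNAJC24, which acts in the synthesis of diphthamide on elongation factor 2, 62.5 TPM.

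**Figure D1:**
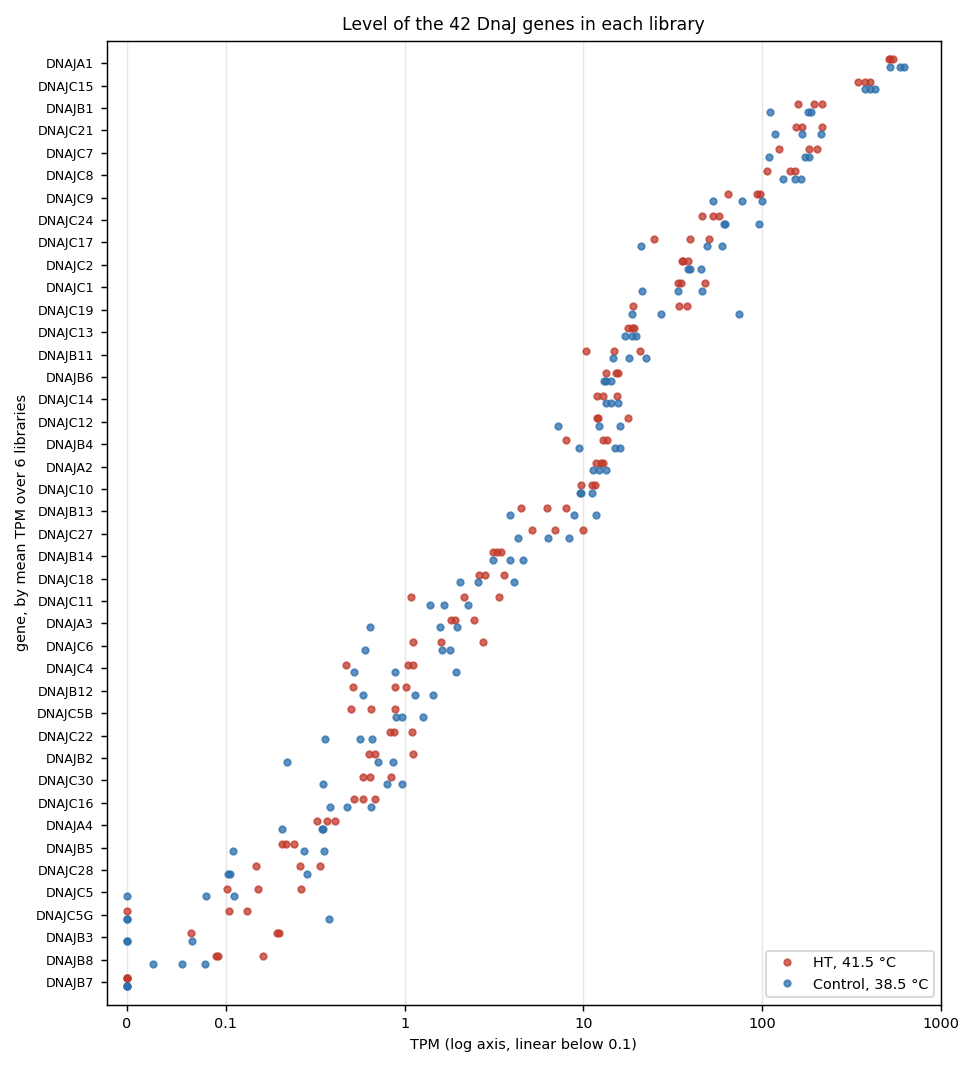
TPM of each of the 42 DnaJ genes (rows, ordered by mean level) in the 3 HT libraries (red) and the 3 Control libraries (blue), on a log axis that is linear below 0.1. The genes run from DNAJA1 at 552 TPM to DNAJB7 with no reads, and the colours overlap in most rows.

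The 8 most abundant members made up between 83.7% and 86.2% of the summed TPM of the family in each library, and DNAJA1 alone between 25.4% and 28.8%. At the low end, DNAJB7 had 0 reads in every library, below a floor of 3 reads per group, or 0.035 CPM in HT and 0.034 CPM in Control. The floor covers counting error only. DNAJB3 had 5, 2 and 5 reads in HT libraries and 0, 2 and 0 in Control libraries, and DNAJC5G had 0, 5 and 6 against 0, 0 and 15. In human and mouse these genes are known mainly from the testis. They were the 3 members with too few reads for the test.

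Close relatives differed strongly in level. Within class A, DNAJA2, a cytosolic co-chaperone like DNAJA1, averaged 12.3 TPM, the mitochondrial DNAJA3 1.72 TPM and DNAJA4, another cytosolic member, 0.333 TPM. Among the canonical class B co-chaperones, DNAJB1 averaged 174 TPM, DNAJB4 12.5 TPM and DNAJB5 0.233 TPM. Of the cysteine-string proteins, DNAJC5, which guards vesicle release at synapses, averaged 0.118 TPM and its relative DNAJC5B 0.861 TPM. DNAJC13, which acts on endosomes, was the leading member of the vesicle group at 18.5 TPM.

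Summed over all 42 members, the family was at 1856, 2046 and 2092 TPM in HT libraries and at 1808, 2107 and 2266 TPM in Control libraries. This was between 0.181% and 0.227% of all TPM. The groups overlapped on this scale, at 1998 ± 125 TPM in HT and 2060 ± 233 TPM in Control (SD, n = 3 each). On the CPM scale, with library sizes scaled by the trimmed mean of M-values (TMM), the sums were 2544, 2801 and 2659 CPM in HT libraries and 2916, 2862 and 2918 CPM in Control libraries, without overlap. TPM and TMM-scaled CPM therefore disagreed on whether the groups overlapped. The TMM factor of Control replicate 1 was 0.865, the lowest of the libraries, which raises its CPM. Sums scaled by library totals alone are not given here, so the gap is shown for TMM scaling only. DNAJA1 had the largest gap of any member in mean CPM, at 700 ± 6.19 CPM in HT and 810 ± 19.7 CPM in Control (SD, n = 3 each). Since these are bulk libraries, a smaller share of a transcript cannot be told apart from fewer embryos or cells that hold it.

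**Figure D2:**
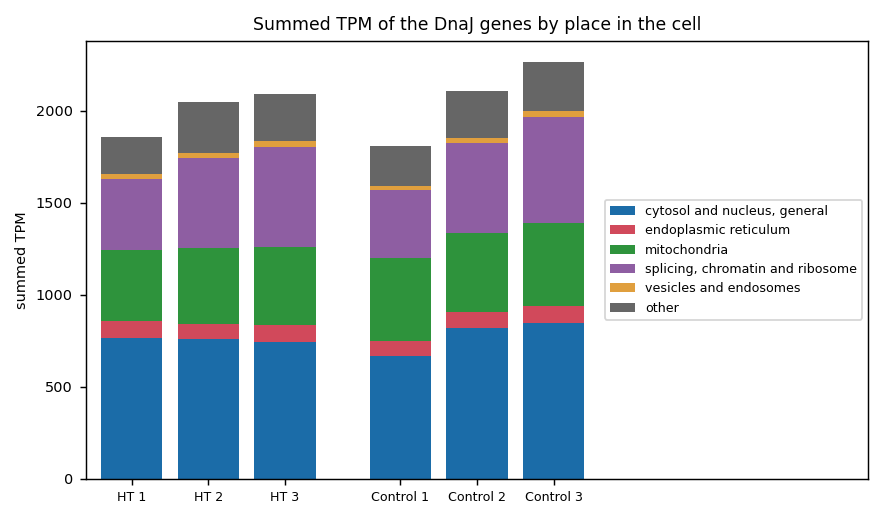
Summed TPM of the DnaJ genes in each library, stacked by the place in the cell where the proteins act, with the 3 HT libraries to the left of the 3 Control libraries. The totals run from 1856 to 2092 TPM in HT and from 1808 to 2266 TPM in Control.

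The 10 general co-chaperones of cytosol and nucleus took the largest share, 755 ± 10.2 TPM in HT and 777 ± 97.0 TPM in Control (SD, n = 3 each). The 5 members of splicing, chromatin and ribosome came next at 474 ± 80.2 and 477 ± 105 TPM, and the 7 mitochondrial members at 409 ± 18.2 TPM in HT and 445 ± 10.8 TPM in Control. The mitochondrial sums were 389, 415 and 424 TPM in HT libraries and 453, 433 and 450 TPM in Control libraries, without overlap. DNAJC15 alone gave 344 to 400 TPM of them in HT and 375 to 426 TPM in Control, so its own groups overlapped. DNAJC19 gave 38.1, 34.2 and 18.9 TPM in HT libraries and 74.3, 27 and 18.6 TPM in Control libraries. Its high value fell in Control replicate 1, the library with the highest mitochondrial sum. The 9 members of the endoplasmic reticulum (ER) summed to 87.0 ± 4.69 TPM in HT and 85.5 ± 4.83 TPM in Control. The 6 vesicle and endosome members summed to 28.7 ± 3.85 and 27.4 ± 3.93 TPM.

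Culture at 41.5 °C gave no DnaJ gene a difference that passed the test. With edgeR's quasi-likelihood test and an adjusted p below 0.05 as the threshold, 0 of 39 tested members were called, as were 0% of all 16056 genes tested. No member had an unadjusted p below 0.05, against 1.85% of all genes tested, and DESeq2 also called 0 members, against 0.0202% of all genes. With the replicate number as a block in edgeR the count of members was again 0, against 0.0187% of all genes. The adjusted p was 0.999923 for every member. The log2 fold change, HT over Control, was above 0 for 18 members and below 0 for 21, so 46.2% lay above 0, while of all genes 47.5% lay above 0 and 52.5% below. Its median was -0.08 over the members and -0.02 over all genes tested, and the members ranged from -0.66 for DNAJC5B to 1.48 for DNAJC5. The median was 0.03 when libraries were scaled by their totals alone.

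The intervals show what size of change could have been hidden in the fit with group as its single term. Variation shared by same-numbered libraries counts as error in that fit, and intervals with the replicate block are not given. For 30 of the 39 members the 95% interval ended below a 2-fold rise, and for 37 below a 4-fold rise. For 20 members, or 51.3%, the whole interval lay within 2-fold in either direction, against 49.6% of all genes tested. The 2 members whose interval reached past a 4-fold rise were DNAJC5 and DNAJB8, both with fewer than 30 reads in each library. The intervals were narrowest for abundant members such as DNAJA1 (-0.58 to 0.16) and DNAJC15 (-0.59 to 0.20).

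**Figure D3:**
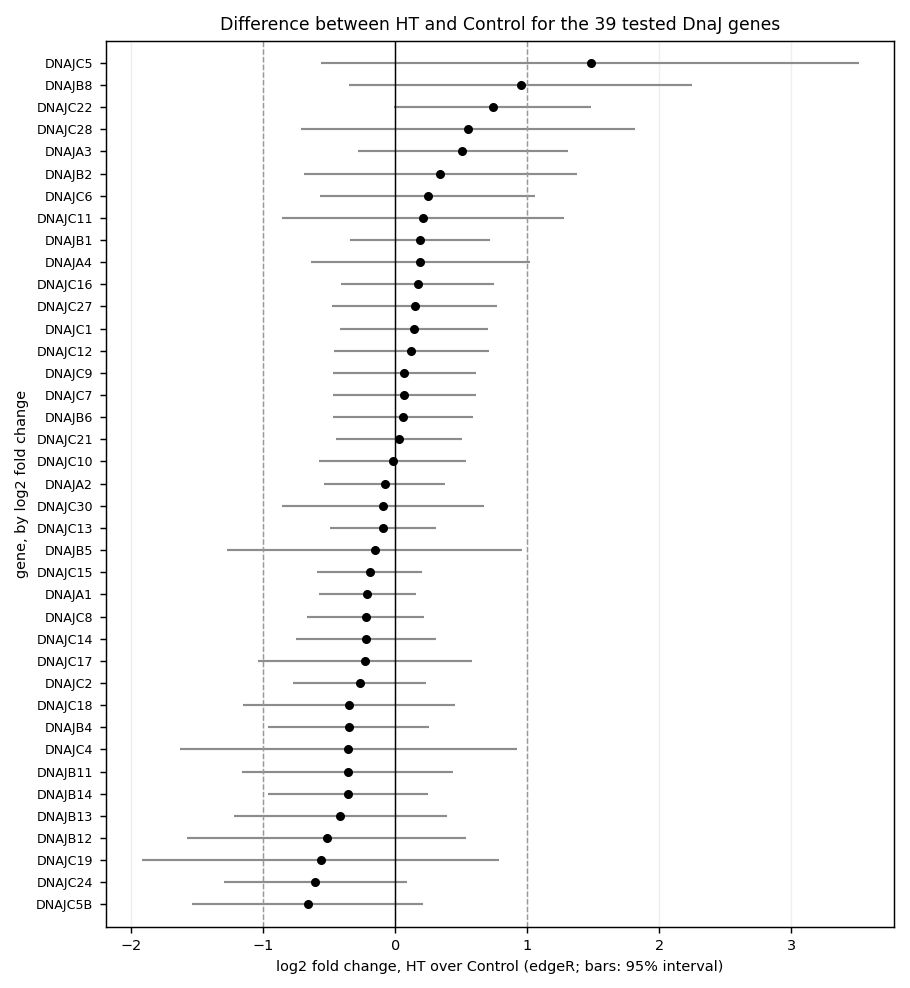
Log2 fold change, HT over Control, of the 39 tested DnaJ genes (points) with its 95% interval (bars) from edgeR, ordered by fold change, with dashed lines at a 2-fold difference in each direction. Every interval holds 0.

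Among the general co-chaperones of the cytosol, DNAJA1 (chromosome 10, 33432529 to 33445556, Sscrofa11.1) was at 693, 705 and 703 CPM in HT libraries and at 832, 794 and 803 CPM in Control libraries. All HT libraries lay below all Control libraries, with little spread inside each group. The log2 fold change was -0.21 (standard error 0.16, edgeR adjusted p = 0.999923). The separation depended on scaling: by library total alone DNAJA1 was at 701, 707 and 765 CPM in HT libraries and 719, 793 and 838 CPM in Control libraries, and by TPM at 515, 519 and 543 in HT against 521, 587 and 625 in Control. On both of these scales the groups overlapped.

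DNAJB1 (chromosome 2, 64761672 to 64764482), the classical heat shock co-chaperone, was at 214, 193 and 143 CPM in HT libraries and at 130, 183 and 168 CPM in Control libraries. The highest value was in HT replicate 1 and the lowest in Control replicate 1, with the other 4 libraries interleaved. The log2 fold change of 0.19 (standard error 0.23) had an interval of -0.34 to 0.72. Without Control replicate 1 it was 0.06, and without HT replicate 3 it was 0.37.

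DNAJB4, DNAJA2 and DNAJB6 overlapped between groups. DNAJB4, a close relative of DNAJB1, was at 39.5, 67.1 and 65.7 CPM in HT libraries and at 58.2, 84.5 and 77.1 CPM in Control libraries, a log2 fold change of -0.35 (standard error 0.27). Replicate 1 was the lowest library of both groups for this gene. DNAJA2 was at 107, 105 and 89.8 CPM in HT libraries and 121, 109 and 88.5 CPM in Control libraries, a log2 fold change of -0.08, which was 0.03 with library totals alone. DNAJB6, which keeps polyglutamine proteins from aggregating, was at 31.3, 27.6 and 24.0 CPM in HT and 32.9, 25.2 and 21.6 CPM in Control, a log2 fold change of 0.06 (interval -0.47 to 0.59). In CPM both genes had their highest value in replicate 1 and their lowest in replicate 3 of each group. This order depended on scaling. By TPM DNAJB6 was lowest in replicate 1 of each group, at 13.3, 15.7 and 15.3 in HT and 13.1, 14.3 and 13.4 in Control. DNAJA2 by TPM was highest in replicate 2 of Control, at 12.2, 13.3 and 11.3, and in HT it kept the order, at 12.8, 12.6 and 11.8.

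The groups did not overlap in 6 of the 39 tested members, or 2 above and 4 below Control. Of all genes tested 7.71% did not overlap, 3.66% with HT above and 4.05% with HT below. The 4 below were DNAJA1, DNAJC15, DNAJC24 and DNAJC5B, and the 2 above were DNAJC22 and DNAJB8. With library totals alone or with TPM values 4 remained, namely DNAJC24, DNAJC5B, DNAJC22 and DNAJB8, on both scales.

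DNAJC15 (chromosome 11, 24011530 to 24087156), which is linked to protein import and to complex I in the inner membrane of mitochondria, was at 196, 212 and 206 CPM in HT libraries and at 252, 224 and 227 CPM in Control libraries. The difference was small next to its error, with a log2 fold change of -0.19 (standard error 0.17). DNAJC24 (chromosome 2, 29305688 to 29365244) was at 91.1, 87.0 and 65.6 CPM in HT libraries and 181, 96.6 and 93.2 CPM in Control libraries. Its log2 fold change of -0.61 (interval -1.30 to 0.09) rested largely on Control replicate 1, and it was -0.23 without that library.

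DNAJC22, a membrane-spanning protein whose Drosophila counterpart acts in endocytosis, had the smallest unadjusted p of the family in edgeR (0.0509). It had 37, 34 and 43 reads in HT libraries and 16, 23 and 27 reads in Control libraries, or 1.27, 1.18 and 1.41 CPM against 0.616, 0.793 and 0.896 CPM. Each HT library lay above each Control library. The log2 fold change was 0.74 (interval -0.01 to 1.48), and it lay between 0.60 and 0.86 with any 1 library left out. The gene overlaps no other counted gene (chromosome 5, 15322489 to 15335038).

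The other members without overlap rested on few reads. DNAJC5B had 13, 16 and 21 reads in HT libraries and 23, 30 and 23 reads in Control libraries, a log2 fold change of -0.66 (interval -1.54 to 0.21). DNAJB8, which prevents aggregation and is known from the testis, had 11, 19 and 10 reads in HT and 4, 9 and 7 reads in Control, a log2 fold change of 0.95 (interval -0.35 to 2.25). Without HT replicate 2 the DNAJB8 value was 0.58. DNAJC5 had 20, 27 and 13 reads in HT libraries and 0, 14 and 7 reads in Control libraries, so the groups overlapped, and its log2 fold change of 1.48 ran from -0.56 to 3.51. It was 0.92 without Control replicate 1 and 2.46 without Control replicate 2.

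**Figure D4:**
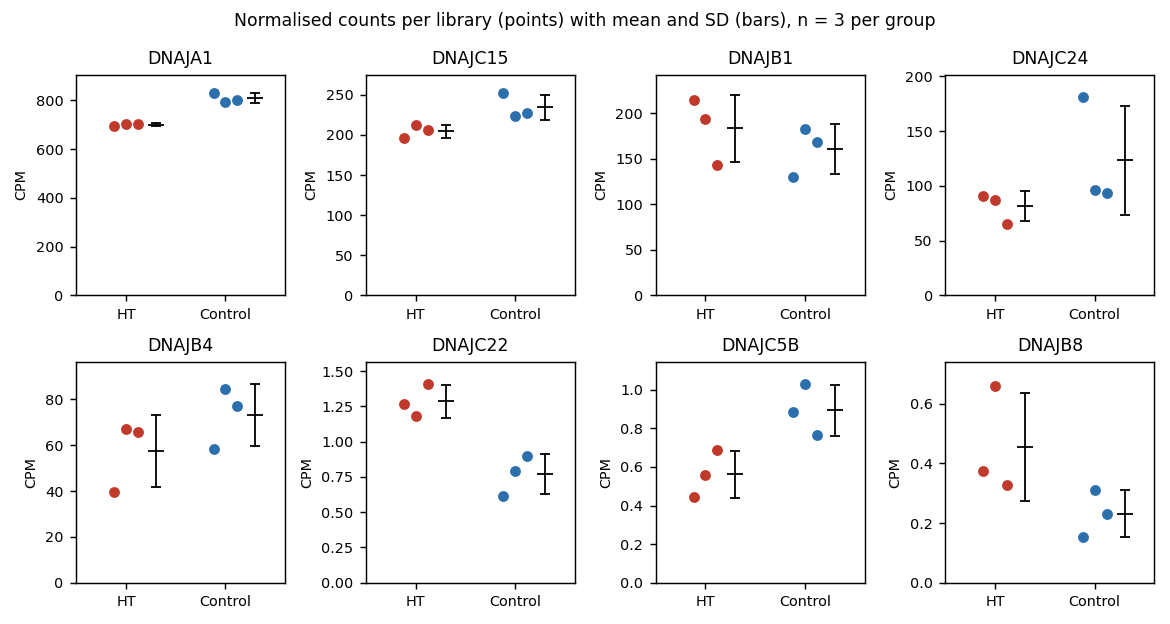
CPM in each library (points) for 8 DnaJ genes, HT to the left of Control in each panel, with the group mean and SD (bars, n = 3) and axes that start at 0. DNAJA1 and DNAJC15 show small gaps between tight groups, DNAJB1 and DNAJB4 overlap, DNAJC24 has 1 high Control library, and DNAJC22, DNAJC5B and DNAJB8 lie below 1.5 CPM.

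Members of splicing, chromatin and ribosome had log2 fold changes between -0.27 and 0.07, and for all 5 the interval ended below a 2-fold rise. DNAJC21 was at 245, 266 and 313 CPM in HT libraries and 222, 263 and 319 CPM in Control libraries, nearly the same set of values in both groups. DNAJC9, which hands histones H3 and H4 on during chromatin assembly, was at 109, 157 and 150 CPM in HT and 107, 130 and 160 CPM in Control. Both were lowest in replicate 1 of each group. DNAJC8 was at 167, 234 and 207 CPM in HT libraries and 239, 229 and 241 CPM in Control libraries, where HT replicate 1 stood below the rest (log2 fold change -0.22, standard error 0.19). DNAJC2, which sits on the ribosome and also binds ubiquitinated chromatin, was at 63.9, 58.4 and 53.3 CPM in HT and 88.7, 62.0 and 61.0 CPM in Control. Its groups overlapped, with Control replicate 1 apart from the other 5 libraries (log2 fold change -0.27, standard error 0.22). DNAJC7, the adaptor between HSP70 and HSP90, was at 178, 286 and 236 CPM in HT libraries and 182, 241 and 241 CPM in Control libraries, a log2 fold change of 0.07.

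ER members, with DNAJC22 counted among them, had 3 log2 fold changes above 0 and 6 below, with a median of -0.22 and 0 called. DNAJB11, a soluble partner of the ER chaperone HSPA5, was at 26.3, 18.8 and 12.1 CPM in HT libraries and 33.5, 22.5 and 17.5 CPM in Control libraries. The groups overlapped while the values spread about as far inside each group, and the log2 fold change was -0.36 (standard error 0.35). DNAJC10, an ER reductase of disulfide bonds, was at 30.4 ± 5.4 CPM in HT and 30.8 ± 7.09 CPM in Control (SD, n = 3 each). DNAJB12 and DNAJB14, ER membrane proteins that expose their J domain to the cytosol and act in the removal of misfolded proteins, had log2 fold changes of -0.52 and -0.36, with intervals of -1.58 to 0.54 and -0.96 to 0.25. DNAJB9 and DNAJC3, ER co-chaperones outside the member rule, were at -0.32 and -0.19.

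Mitochondrial members had 3 log2 fold changes above 0 and 4 below. DNAJA3, which works with the mitochondrial HSP70 HSPA9, was at 3.66, 3.82 and 4.48 CPM in HT libraries and 1.54, 3.14 and 3.69 CPM in Control libraries. Its log2 fold change of 0.51 (interval -0.28 to 1.31) was 0.22 without Control replicate 1, the lowest library. DNAJC19, a part of the motor that pulls proteins into the matrix, is named here because of its spread. It was at 30, 26.7 and 13.4 CPM in HT libraries and 69.1, 20.9 and 13.7 CPM in Control libraries, a 5.14-fold range over 6 libraries. Its log2 fold change of -0.56 (interval -1.92 to 0.79) became 0.43 without Control replicate 1. DNAJC11, of the complex that shapes the cristae, was at 5.85, 3.96 and 1.70 CPM in HT and 4.65, 2.96 and 2.32 CPM in Control.

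Tested vesicle and endosome members and the remaining tested genes overlapped between groups apart from DNAJC5B and DNAJC24. DNAJC13 varied 1.16-fold over all libraries, at 114, 106 and 105 CPM in HT libraries and 122, 117 and 107 CPM in Control libraries (log2 fold change -0.09, interval -0.49 to 0.31). DNAJC6, or auxilin, which uncoats clathrin vesicles, was at 7.05, 10 and 11.8 CPM in HT and 4.5, 9.76 and 10.1 CPM in Control. DNAJB13, a radial spoke protein of cilia, was at 4.38, 5.77 and 6.74 CPM in HT libraries and 4.27, 8.10 and 10.2 CPM in Control libraries. DNAJC12, a co-chaperone of aromatic amino acid hydroxylases, was at 12.2 ± 2.14 CPM in HT and 11.2 ± 2.51 CPM in Control (SD, n = 3 each).

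The genes that work with the DnaJ proteins in the HSP70 cycle showed no called difference either. Of the 35 listed genes found, 34 were tested, with 13 log2 fold changes above 0, 21 below, 0 called by edgeR or DESeq2 and 0 at an unadjusted p below 0.05. The median was -0.05. HSPA8, the constitutive HSP70 that DNAJA1 and DNAJB1 serve, was at 779, 577 and 358 CPM in HT libraries and 809, 637 and 377 CPM in Control libraries. Both groups ran over the same range. HSPA5 of the ER had a log2 fold change of -0.00 (interval -0.66 to 0.65), the mitochondrial HSPA9 of -0.29 (-0.83 to 0.26) and the exchange factor HSPH1 of -0.13 (-0.72 to 0.46). HSPA4L, an exchange factor of the HSP110 kind, was at 171, 213 and 226 CPM in HT and 193, 253 and 257 CPM in Control. Tested listed genes whose groups did not overlap were HSP70.2, HSPBP1 and BAG4 above Control and HSPA1L and DNAJC3 below, or 5 of 34, against 7.71% of all genes tested. HSPA6, the listed gene with too few reads for the test, had 5, 4 and 5 reads in HT libraries and 3, 2 and 4 reads in Control libraries. HSP70.2 was at 17, 11.8 and 10.9 CPM in HT libraries and 9.85, 10.1 and 9.86 CPM in Control libraries. Its log2 fold change was 0.41 (interval -0.14 to 0.96). HSPA1L went the other way, with a log2 fold change of -0.69 (interval -1.41 to 0.03). No annotated gene carried the symbol HSPA1A or HSPA1B, so neither could be analysed by name. Whether a gene under another symbol, such as HSP70.2, stands for either of them was not checked.

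The ratio of summed DnaJ to summed HSP70 transcripts in TPM was 2.72, 3.95 and 5.19 in HT libraries and 2.93, 3.66 and 5.52 in Control libraries. It spread more within each group than between them, since HSP70 sums were 681, 518 and 403 TPM in HT and 618, 575 and 411 TPM in Control.

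Within each group the members split into those higher in replicate 1 and those higher in replicate 3. In log2 CPM with 0.1 added, 12 members were higher in replicate 1 than in replicate 3 of both groups and 17 were lower in both, while 10 differed in direction between groups. This was 30.8%, 43.6% and 25.6% of the members, against 37.3%, 41.8% and 20.9% of all genes tested. Of the 9 ER members 5 were higher in replicate 1 of both groups, DNAJB11, DNAJB12, DNAJB14, DNAJC10 and DNAJC14. Of the 5 members of splicing, chromatin and ribosome 4 were lower in replicate 1 of both groups, and DNAJC2 was higher. Of the HSP70 cycle genes 20 of 34, or 58.8%, were higher in replicate 1 of both groups. In Control the widest difference, replicate 1 minus replicate 3, was that of DNAJC19 (1.15 in HT and 2.32 in Control), and in HT that of DNAJC11 (1.73 in HT and 0.97 in Control). For DNAJC17, a splicing factor, it was -0.88 in HT and -1.17 in Control. DNAJA1 hardly varied on this TMM scale (-0.02 in HT and 0.05 in Control), and DNAJB1 went opposite ways (0.58 in HT and -0.38 in Control). By library total alone DNAJA1 was lower in replicate 1 than in replicate 3 of both groups. It was at 701 against 765 CPM in HT and at 719 against 838 CPM in Control.

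**Figure D5:**
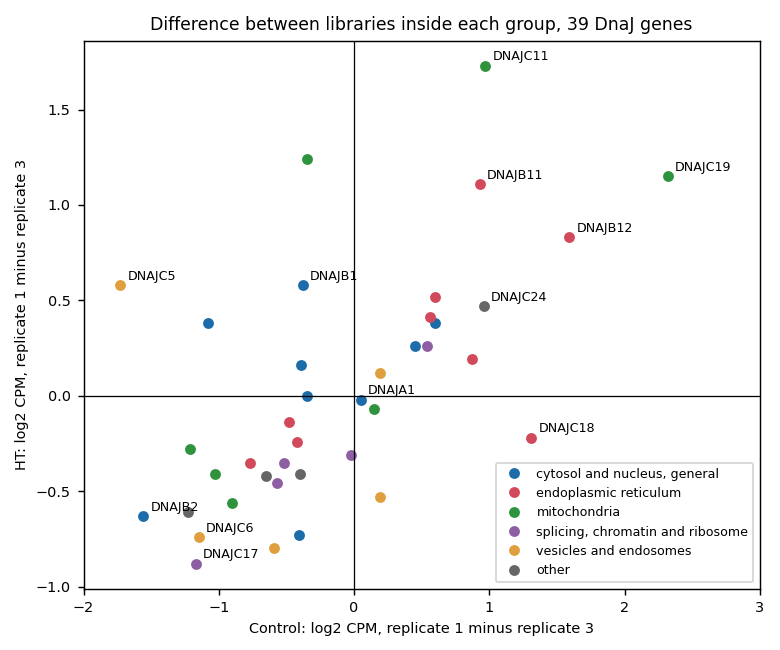
Difference in log2 CPM between replicate 1 and replicate 3 within HT (vertical) and within Control (horizontal) for 39 DnaJ genes, coloured by the place where the protein acts. Points in the upper right were higher in replicate 1 of both groups (12 genes), and points in the lower left were lower in both (17 genes).

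Control replicate 1 held the extreme value most often. It was the highest of the 6 libraries for 14 of the 39 tested members and the lowest for 17, or 35.9% and 43.6%, against 27.6% and 26.1% of all genes tested. Its TMM factor of 0.865 was the lowest, where the other libraries had factors between 1 and 1.09. The median standard deviation within groups was 0.32 in log2 CPM for the members and 0.39 for all genes tested. The median absolute difference between group means was 0.22 and 0.19, so for most members the libraries of a group lay further apart than the group means did. The difference between means was larger than the standard deviation within groups in 12 members, or 30.8%, against 21.9% of all genes.

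The spans of 17 members overlapped another counted gene, in all but DNAJC5 on the opposite strand. The kit does not mark strand, so reads in these stretches may belong to either gene. The counts of such members are uncertain where the partner is abundant: DNAJC24 held 12% of the summed reads of its locus, DNAJC14 18.6% and DNAJA4 1.44%. Summed with its overlapping genes IMMP1L and LOC100517025, the DNAJC24 locus had a log2 fold change of -0.28 (interval -0.75 to 0.20). The overlap for DNAJC24 was short, 219 and 64 bases at its ends. DNAJB5 changed sign when summed with LOC100525024, at -0.15 alone and 0.36 summed, and DNAJA4 when summed with WDR61, at 0.19 alone and -0.19 summed. The sums take in all reads of the other genes, not just those in the shared stretch. For DNAJC24 and DNAJA4 they therefore mostly show the other genes and cannot tell how far the member's own count is off. DNAJC4 lies in full inside TRPT1 (chromosome 2, 7876587 to 7880908), DNAJB7 inside XPNPEP3 and DNAJB3 inside UGT1A6. The gene LOC100515643, annotated as a product of subfamily C member 25, falls outside the rule by its symbol and was at 3.36 ± 1.57 CPM in HT and 3.41 ± 1.85 CPM in Control (SD, n = 3 each).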

How the data were processed

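The authors deposited raw read counts for each gene, which are whole numbers in every library. FPKM and TPM values made by the authors stand beside them in the same table, per the file headers. The coverage signal per gene in the deposited sample tables was not used. Per the submitters' processing notes, StringTie 2.1.3b, HISAT2 2.1.0, Trimmomatic 0.38, Bowtie2 and HISAT were used on the build Sscrofa11.1, with no role named. Which program counted reads, and how it treated overlapping genes, are not stated in the sources at hand. Table columns were matched to the samples by name and checked against the FPKM of each sample's own table: between 99.44% and 99.52% of 30376 genes agreed within 1e-05, against at most 27.95% in another column.

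The test on counts was that of edgeR 4.0.16, run in R 4.3.3 (quasi-likelihood, TMM scaling, default filter on low counts, group as the single term) over 16056 genes, with Benjamini-Hochberg adjustment over all of them and a threshold of 0.05. CPM values use TMM-scaled library sizes. The script was tested on simulated counts. Standard errors and 95% intervals come from the F statistic of that fit. Alternatives used DESeq2 1.42.0 and limma 3.58.1. Positions come from the deposited tables and matched a RefSeq gene table of Sscrofa11.1 for 42 of 42 members. No sequences are shown.

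Members and lists, by place in the cell and by role in the HSP70 cycle, were chosen with earlier results of these data known. Values are given in every library for the 8 members highest in TPM, the 6 with the smallest p, those whose groups did not overlap and 10 fixed members, 18 in all. All other members given with values were named after their values were seen. Exact tests over 3 against 3 libraries allow no p below 0.1 and were not used.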

Additional observations from a re-analysis of the deposited data

How the results depend on the processing

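The count of called DnaJ members was 0 under every setting tried: DESeq2 size factors or library totals for scaling, no filter on low counts, DESeq2, the replicate number as a block, limma on FPKM or TPM, and each library left out. The same held for the HSP70 cycle genes. Over all genes, where edgeR called 0, the count was 1 without the filter, 5 with DESeq2 and 3 with the replicate block. With that block 5 of 39 members had an unadjusted p below 0.05 (DNAJA3, DNAJB11, DNAJB4, DNAJC22 and DNAJC24), while 9.25% of all genes tested did, and the smallest adjusted p of a member was 0.413. Same-numbered libraries deviated together for replicates 1 and 3 (r = 0.516 and 0.586 over 16056 genes) but not for replicate 2 (0.008), and over all genes not every library was most like its own number. Over the 39 members alone the same r was 0.483, 0.252 and 0.659 for replicates 1, 2 and 3, and each library was most like its own number. The numbers are not taken to pair the samples, going by all genes. The count of members above 0 lay between 15 and 23 over all settings, and the median log2 fold change between -0.10 and 0.05. The number of members with a value differed between settings. The 15 were of 39 members, without Control replicate 1, and the 23 of 41, in limma on log2(FPKM + 1) with no filter.

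Of 18 named members 13 kept their direction under each setting that gave them a value, and the cause of the reversals in the other 5 was not tested. DNAJB8 and DNAJC5 had no value in limma with a filter on low FPKM or TPM, and the sum with overlapping genes applied to 5 of the 18. DNAJA2 was at 0.025 with library totals, 0.021 on log2(FPKM + 1) with or without a filter, 0.023 on log2(FPKM + 0.1) and 0.019 on log2(TPM + 1). With each library left out the range was -0.20 to 0.028 for DNAJA2, -0.076 to 0.24 for DNAJB6, -0.10 to 0.23 for DNAJC7, -0.060 to 0.23 for DNAJC9 and -0.085 to 0.18 for DNAJC21. The standard error of the log2 fold change was 0.88 for DNAJC5, 0.56 for DNAJB8 and 0.32 for DNAJC22, all with under 50 reads per library, 0.59 for DNAJC19 with at least 411 reads, and 0.16 for DNAJA1.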
